A study of Rattus norvegicus with 35 samples.

Results

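Kidney cortex of female rats that ate a potassium-deficient diet was compared with kidney cortex of female rats that ate a high-potassium diet, by RNA sequencing. The comparison held 11 of the 35 libraries of the series, 6 from the deficient diet (DK) and 5 from the high diet (HK), chosen by their sex and diet labels. Genes were kept where the deposited level, in FPKM (fragments scaled to gene length and sequencing depth), was at least 1 in at least 5 libraries of the series, which left 14264 of 32545 genes. Per the series text, all 3 diets were high in salt, at 4% NaCl, so the controls carried the salt load too. The HK diet held 1.41% potassium and the normal diet (NK) 0.36%, and no percentage was given for DK. A telemeter for blood pressure was implanted at 8 weeks of age and cortex from 1 kidney was taken and frozen after 5 weeks on the diets. The labels give the genotype as WT and name no strain, and the series title concerns salt-sensitive hypertension. That each library is from its own animal is not said outright in the labels, so p-values reflect the spread between libraries, part of which may be technical.

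The HK animals are the reference throughout, and a positive log2 difference means a higher level in DK. Reads assigned to genes numbered 14.56 to 28.66 M per library. The sample numbers of all 11 libraries lie in the 300s. The 20 most abundant genes took 18.0 to 23.1% of the reads in DK and 15.4 to 18.5% in HK. Markers of the proximal tubule, which fills most of the cortex, were high in every library: the 10 markers summed to 3054 to 4518 FPKM in DK and 3980.4 to 5242 in HK. The adrenal markers summed to at most 1.83 FPKM in any HK library and 2.48 in any DK library. DK replicates 1 and 3 stood apart from the other DK libraries. Their weights, estimated from how far each library lay from its group, were 0.378 and 0.178, against 0.736 to 1.57 for the other DK libraries, and list counts that moved by over 1.5 times, and calls that changed, without both of these libraries are given with their lists.

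The kidney is the organ that sets potassium balance. Most filtered potassium is taken back in the proximal tubule and the thick ascending limb, and the amount excreted is then set by principal cells of the distal nephron, through the channels ROMK and BK, under aldosterone. When potassium is short, secretion falls, the thiazide-sensitive cotransporter of the distal convoluted tubule is known to be switched on, and intercalated cells take potassium back in exchange for acid. Potassium depletion is also known for raised ammonia production from glutamine in the proximal tubule and for growth of the kidney.

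Of the 14264 genes, 5188 (36.4%) differed between DK and HK at an adjusted p under 0.05 in limma with Benjamini-Hochberg adjustment. Levels were higher in DK for 2656 genes (18.6%) and lower for 2532 (17.8%), and the median log2 difference over all genes was -0.01. A difference over 2-fold was called for 360 higher genes (2.52%) and for 2.57% of genes in the lower direction. The libraries of the groups did not overlap in 2183 genes (15.3%), with every DK library above every HK library in 1168 (8.19%) and below in 1015 (7.12%). The split between higher and lower rests on the authors' scaling between libraries. Scaled to the sum of reads in each library instead, 1200 genes were higher and 5252 lower, and the median of all genes moved to -0.21. Of the 5188 genes, 3732 were called in both scalings. None of these changed its direction, for which a shift common to all genes leaves little room. The authors' scale factor was 0.813 to 0.990 in DK and 0.969 to 1.10 in HK.

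The rise with the highest fold was in Rbp4, which encodes the plasma carrier of retinol. It stood at 117 to 871 FPKM in DK (median 523) and at 3.28, 1.97, 2.47, 1.33 and 1.05 FPKM in HK. Every DK library lay far above every HK library, with DK replicate 1, at 117 FPKM, the lowest of the DK group. The means were 502 ± 241 FPKM in DK (SD, n = 6) and 2.02 ± 0.893 in HK (SD, n = 5), and the log2 difference was 7.50 ± 0.63 (SE, adjusted p = 1.15e-10). In the deposited table, genome build not given in the sources used here, Rbp4 lies on chromosome 1, from 256806472 to 256813711.

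Abcb11, the bile salt export pump, followed with 25.1 to 92.8 FPKM in DK (median 54.0) and 0.462, 0.490, 0.699, 0.660 and 0.484 FPKM in HK, a log2 difference of 5.54 ± 0.38 (SE, adjusted p = 1.61e-12). Tat, tyrosine aminotransferase, a glucocorticoid-responsive enzyme of amino acid breakdown, stood at 26.1 to 68.8 FPKM in DK (median 39.0) and at 0.327, 1.13, 1.69, 0.298 and 1.17 FPKM in HK, a difference of 4.94 ± 0.28 (SE, adjusted p = 5.42e-14). For both genes the lowest DK library was more than 10 times the highest HK library. Fam25a stood at 94.4 to 278 FPKM in DK (median 191) and at 2.47, 2.23, 2.16, 4.86 and 3.95 FPKM in HK. The glutathione transferase Gstm1 had 229.7 to 1212 FPKM in DK (median 638) and 32.9, 22.0, 21.5, 34.9 and 18.6 FPKM in HK, with a log2 difference of 4.45 ± 0.34 (SE, adjusted p = 2.04e-11). The other rises among the 15 of highest fold included Cyp27b1, S100g, Slc38a3 and Sds, described with their pathways. They also included Tf, the iron carrier transferrin, at 220.1 to 519 FPKM in DK against 27.3 to 37.9 in HK, Bhmt, which remethylates homocysteine with betaine, at 145 to 459 FPKM in DK against 28 to 45.6 in HK, and the sulfotransferase Sult1a1, at 86.0 to 294 FPKM in DK against 13.9 to 34.1 in HK. The neighbouring claudin genes Cldn22 and Cldn24 had log2 differences of 3.56 and 3.88, and since the counting is not stated to use strand, reads shared between near neighbours or similar copies could not be told apart.

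The fall with the highest fold was in Oacyl, annotated as an acyltransferase. It stood at 0.0678 to 0.187 FPKM in DK (median 0.1003) and at 11.6, 14.2, 17.2, 12.1 and 12.9 FPKM in HK, and no DK library reached 0.2 FPKM. The log2 difference was -4.51 ± 0.31 (SE, adjusted p = 1.86e-12). Since 0.5 was added to each value before the log, this log2 difference understates the ratio of the means, which were 0.115 ± 0.0447 FPKM in DK (SD, n = 6) and 13.6 ± 2.24 in HK (SD, n = 5). Akr1b7, an aldo-keto reductase, stood at 0.821 to 8.08 FPKM in DK (median 4.73) and at 29, 62.3, 53.9, 50.3 and 145 FPKM in HK, with a log2 difference of -3.88 ± 0.41 (SE, adjusted p = 1.25e-08). Dio1, the deiodinase that turns thyroxine into triiodothyronine, stood at 12.8 to 35.7 FPKM in DK (median 23.9) and at 183, 245, 207, 199 and 259 FPKM in HK, with a log2 difference of -3.21 ± 0.35 (SE, adjusted p = 1.93e-08). Every HK library of Dio1 was at least 5 times the highest DK library. Slc16a14, an orphan monocarboxylate transporter family member, stood at 4.82 to 18.7 FPKM in DK against 55.5 to 101 in HK, the homeobox gene Nkx1-2 at 1.23 to 3.74 FPKM in DK against 21.2 to 29.6 in HK, and Hnmt, which inactivates histamine, at 4.6 to 22.3 FPKM in DK against 36.2 to 98.2 in HK. None of these groups overlapped.

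**Figure D1:**
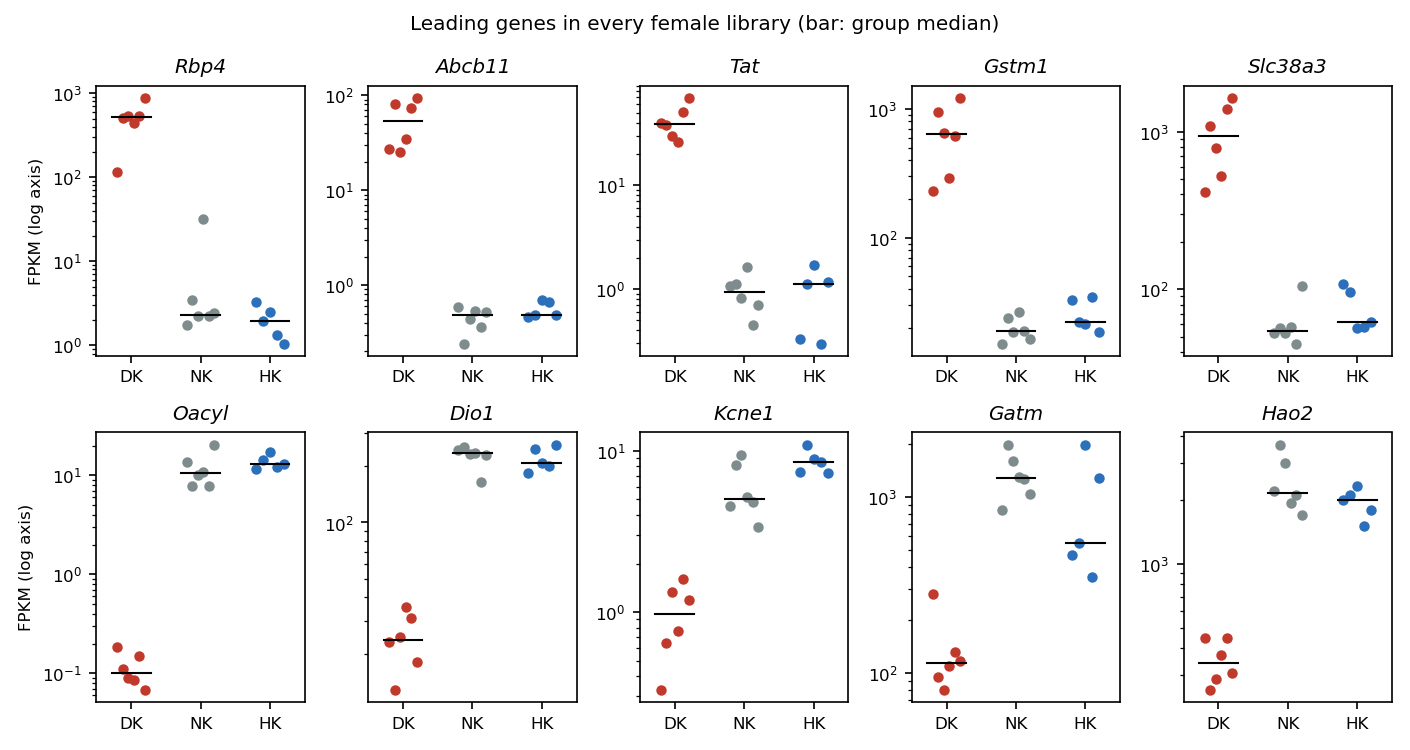
FPKM on a log axis of 10 of the genes with the highest folds in every female library, 6 DK, 6 NK and 5 HK. Each point is a library and each bar the median of its group. The DK points lie apart from the HK points in all 10 genes, with the upper row higher and the lower row lower in DK, and the NK points lie near the HK points.

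Measured in FPKM rather than in fold, the changes of largest size lay in abundant tubule genes. Gpx3, the secreted glutathione peroxidase that the proximal tubule makes for plasma, was the most affected, at 31329 ± 7289 FPKM in DK (SD, n = 6) and 16711 ± 2018 in HK (SD, n = 5), with overlap between the groups and a log2 difference of 0.88 ± 0.22 (SE, adjusted p = 0.0020). Pck1, phosphoenolpyruvate carboxykinase, was at 8619 ± 2709.5 FPKM in DK (SD, n = 6) and 1712 ± 271.6 in HK (SD, n = 5), with a log2 difference of 2.29 ± 0.26 (SE, adjusted p = 5.52e-08) and no overlap. On the other side, Kap, a kidney androgen-regulated gene, was at 1716 ± 959 FPKM in DK (SD, n = 6) and 5471 ± 1609 in HK (SD, n = 5), with a log2 difference of -1.80 ± 0.39 (SE, adjusted p = 5.96e-04). Oat, ornithine aminotransferase, was at 529.8 ± 149 FPKM in DK (SD, n = 6) and 2132 ± 571 in HK (SD, n = 5) and Hao2, a peroxisomal hydroxyacid oxidase, at 351.8 ± 83.1 FPKM in DK (SD, n = 6) and 1952 ± 316 in HK (SD, n = 5), and in both the groups did not overlap. Gatm, which makes guanidinoacetate for creatine synthesis, was at 136 ± 73.0 FPKM in DK (SD, n = 6) and 928 ± 693 in HK (SD, n = 5), with the HK libraries spread from 352.1 to 1984 FPKM. Miox, the myo-inositol oxygenase of the proximal tubule, was at 128 ± 25.9 FPKM in DK (SD, n = 6) and 688 ± 162 in HK (SD, n = 5), with a log2 difference of -2.42 ± 0.22 (SE, adjusted p = 5.94e-10).

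The NK libraries, which took no part in the contrast, showed on which side the difference lay. Of the 360 genes over 2-fold higher in DK, 97.8% had an NK mean nearer to HK than to DK, and the share was also 97.8% of the genes over 2-fold lower. Per library, the median over the 360 genes was 1.05 to 1.62 above the HK mean (log2) in DK and -0.09 to 0.14 in NK. Over the genes over 2-fold lower it was -1.49 to -1.09 in DK and -0.27 to 0.17 in NK. DK replicate 1 had the smallest shift in both sets. The genes had been chosen for their difference between DK and HK, so only the place of NK is a finding here. Of the 6 NK libraries 4 carry sample numbers in the 200s, and the part of that in these values was not tested.

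**Figure D2:**
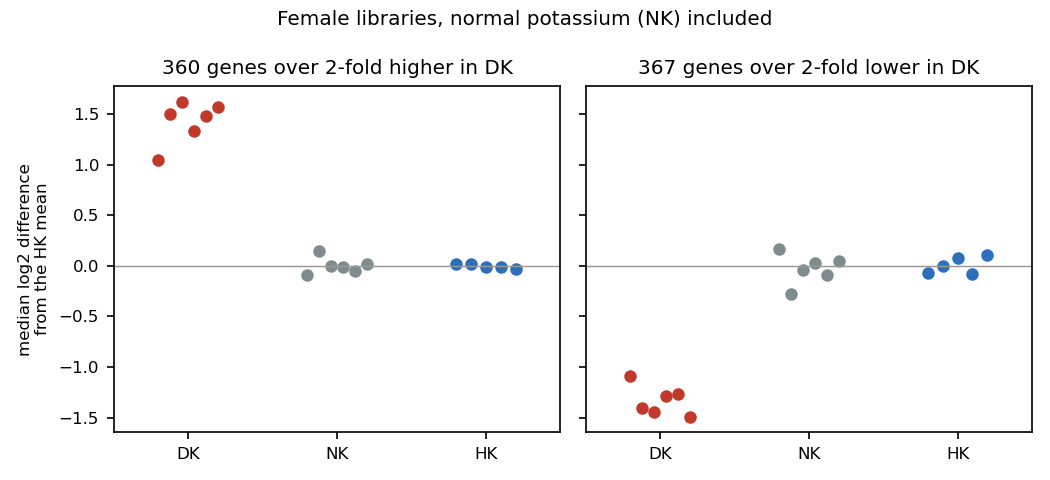
Median log2 difference from the HK mean in each female library, over the 360 genes over 2-fold higher in DK (left) and those over 2-fold lower (right). Each point is a library of DK, NK or HK. The 6 DK libraries lie apart by construction, and the 6 NK libraries lie around 0 with the 5 HK libraries.

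Several enzymes and carriers of ammonia production from glutamine were higher in DK. Glutamine enters proximal tubule cells and releases ammonium there, in its last step through glutamate dehydrogenase, and the carbon skeleton goes to glucose through Pck1. Of 20 tested members of the ammonia and acid-base list, 8 were higher, 2 lower and 10 did not pass. The median log2 difference was 0.37, and 50% of the members were called against 36.4% of all genes. Slc38a3, the glutamine importer SNAT3 of the basolateral membrane, stood at 412 to 1630.0 FPKM in DK (median 943) and at 108, 95.6, 56.8, 57.9 and 61.7 FPKM in HK, with a log2 difference of 3.56 ± 0.38 (SE, adjusted p = 1.59e-08). Glud1, glutamate dehydrogenase, stood at 954 to 1959.7 FPKM in DK (median 1245) and at 329.9, 363.3, 362, 278 and 362.6 FPKM in HK, with a log2 difference of 1.94 ± 0.17 (SE, adjusted p = 1.64e-10). The DK and HK libraries overlapped neither in Slc38a3 and Glud1 nor in Pck1, at 5648 to 12545 FPKM in DK (median 8486) and 1819.5, 2062, 1789, 1523 and 1366 FPKM in HK. Luminal carbonic anhydrase Car4 was higher as well, at 74.4 to 139.7 FPKM in DK against 60.6 to 68.0 in HK and a log2 difference of 0.79. An ammonia channel of the collecting duct moved less: Rhcg had a log2 difference of 0.42 ± 0.16 (SE, adjusted p = 0.044). Rhcg lost its call without DK replicate 2, 3, 5 or 6 or without HK replicate 1, 3, 4 or 5, each left out singly, with adjusted p up to 0.096. Without DK replicates 1 and 3 its adjusted p was 0.064. Without those 2, without DK replicate 3 or 4, or without HK replicate 2, 3 or 4, 1 member of the list was lower. With library sums, and with quantile normalization, 5 were higher and 4 lower, and Slc38a3, Glud1, Pck1 and Car4 kept their calls with library sums.

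Amino acid breakdown and glucose synthesis changed in more members than the background share. Of 32 tested members, 17 were higher, 7 lower and 8 did not pass, with a median of 0.48 and 75% called against 36.4% of all genes. The rises included enzymes that degrade tyrosine, serine, alanine and proline. Sds, serine dehydratase, stood at 35.3 to 269.7 FPKM in DK (median 103) and at 3.66, 14.2, 4.83, 16.8 and 15.3 FPKM in HK, with a log2 difference of 3.46 ± 0.44 (SE, adjusted p = 3.23e-07). Gpt, alanine aminotransferase, stood at 26.8 to 56.2 FPKM in DK against 8.15 to 14.6 in HK, with a log2 difference of 1.97, and Prodh, proline dehydrogenase, at 46.5 to 118 FPKM in DK against 16.8 to 38.2 in HK, with a log2 difference of 1.69. In each of these the groups did not overlap. Oat, which sits on the path from ornithine to proline and glutamate, went the other way, with every DK library, at most 753 FPKM, below every HK library, at least 1651. Gatm was lower too, at 80.1 to 280.1 FPKM in DK (median 114) and 469, 552, 1984, 352.1 and 1280.2 FPKM in HK, with a log2 difference of -2.59 ± 0.38 (SE, adjusted p = 3.30e-06).

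**Figure D3:**
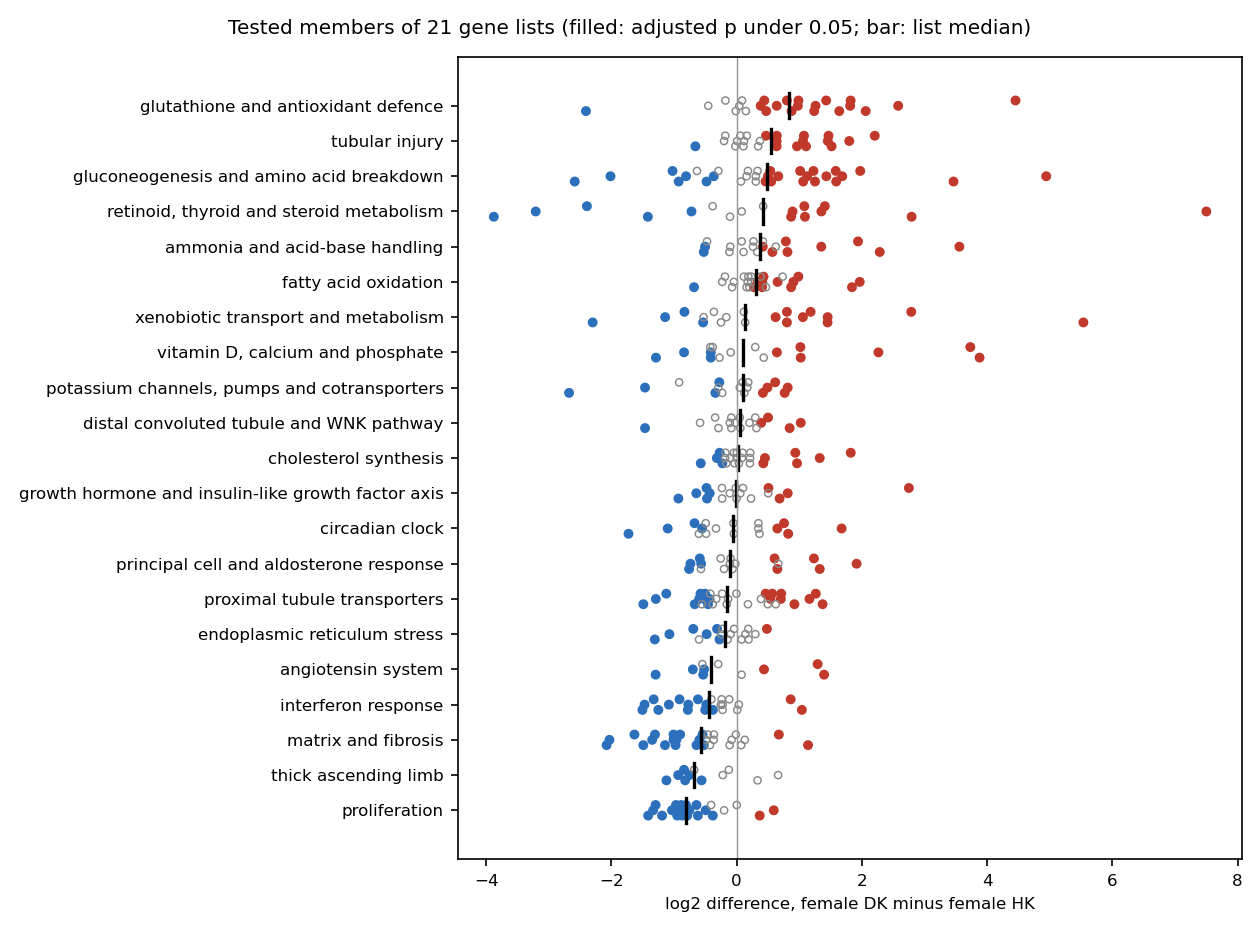
Log2 difference between female DK and HK for every tested member of 21 gene lists, ordered by list median. Filled points passed the test (red higher, blue lower in DK), open points did not, and the bar marks the median, from -0.81 for proliferation to 0.84 for glutathione and antioxidant defence.

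Genes of potassium secretion and sodium reabsorption gave a mixed picture. Among 30 genes of transport, the angiotensin system and injury that were followed whatever their p, 28 were tested, 10 were higher, 7 lower and 11 did not pass. The BK channel gene Kcnma1 and the gastric proton pump gene Atp4a were below the filter. In the potassium channel, pump and cotransporter list, 5 of 17 tested members were higher, 4 lower and 8 did not pass. The median was 0.09, and 52.9% of the members were called against 36.4% of all genes. With library sums 3 were higher and 5 lower, and with quantile normalization 2 and 4. Without DK replicate 3, 5 or 6, or HK replicate 1 or 4, 3 were higher. Kcnj1, which encodes the secretory channel ROMK, was at 78.6 to 153 FPKM in DK (median 92.4) and 70.4, 117, 107, 75.8 and 98.5 FPKM in HK, and the groups overlapped, with a log2 difference of 0.09 ± 0.16 (SE, adjusted p = 0.69). Kcnj16, a subunit of the basolateral channel of the distal tubule, was at 457 ± 74.2 FPKM in DK (SD, n = 6) and 438 ± 42.3 in HK (SD, n = 5), with a log2 difference of 0.05 ± 0.15 (SE, adjusted p = 0.83). Its partner Kcnj10 stood at 2.08 to 7.15 FPKM in DK (median 5.35) and at 10.3, 16.4, 15.5, 13.5 and 11.3 FPKM in HK, with every DK library below every HK library and a log2 difference of -1.46 ± 0.27 (SE, adjusted p = 6.84e-05). Kcne1, a regulatory subunit of voltage-gated potassium channels, was lower still, at 0.328 to 1.61 FPKM in DK (median 0.977) and 7.36, 10.9, 8.84, 8.57 and 7.32 FPKM in HK, with a log2 difference of -2.68 ± 0.31 (SE, adjusted p = 4.67e-08). Kcnk5, the proximal tubule channel TASK-2, was higher, at 48.6 to 90.2 FPKM in DK against 30.6 to 41.8 in HK, with a log2 difference of 0.82 ± 0.16 (SE, adjusted p = 2.14e-04). Atp1b1, which encodes a beta subunit of the sodium pump, was higher, at 2220.3 ± 269.1 FPKM in DK (SD, n = 6) and 1311 ± 227 in HK (SD, n = 5), with a log2 difference of 0.77 ± 0.10 (SE, adjusted p = 4.54e-07). The colonic potassium pump gene Atp12a, at 0.488 to 2.5 FPKM in DK (median 1.45) and 3.24, 5.04, 1.46, 3.89 and 1.61 FPKM in HK, did not pass, with a log2 difference of -0.92 ± 0.38 (SE, adjusted p = 0.058), but was called lower without DK replicate 1, HK replicate 3 or HK replicate 5, at adjusted p of 0.028, 0.034 and 0.039, and without DK replicates 1 and 3, at 0.031. Quantile normalization turned Kcnj16 lower, at a log2 difference of -0.36.

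In the distal convoluted tubule, the salt cotransporter gene itself did not pass. Slc12a3, which encodes the thiazide-sensitive cotransporter, was at 76.3 to 138 FPKM in DK (median 102) and 125, 137, 119, 105 and 80.7 FPKM in HK, with a log2 difference of -0.11 ± 0.22 (SE, adjusted p = 0.73). Of the 4 tested kinases of its control pathway in the list, Wnk4 and Stk39 were higher and the other two did not pass. Wnk4 stood at 7.37 to 12.3 FPKM in DK (median 11.2) and at 5.8, 5.18, 5.09, 5.64 and 6.2 FPKM in HK, with no overlap and a log2 difference of 0.85 ± 0.13 (SE, adjusted p = 7.97e-06). Stk39, which encodes the kinase SPAK, stood at 13.9 to 15.4 FPKM in DK (median 14.7) and 8.49, 13.8, 11.8, 9.75 and 12.2 FPKM in HK, with a log2 difference of 0.39 ± 0.11 (SE, adjusted p = 0.0069). With library sums Wnk4 kept its call, at an adjusted p of 2.16e-04, and Stk39 lost it, at 0.19. Wnk1 and the ubiquitin ligase parts Klhl3 and Cul3, which degrade WNK kinases, did not pass, with log2 differences of -0.34, -0.09 and -0.02, though Wnk1 and Cul3 were called lower with library sums. Wnk1 was also called lower without DK replicate 2 or HK replicate 5, at adjusted p of 0.011 and 0.025. The calcium channel Trpv5 was higher, at 7.68 to 18.3 FPKM in DK against 3.08 to 6.63 in HK, with a log2 difference of 1.02 ± 0.28 (SE, adjusted p = 0.0050). Of 17 tested members of this list, 4 were higher, 1 lower and 12 did not pass, with a median of 0.05. The share called, 29.4%, was below the 36.4% of all genes. With library sums 2 were higher and 6 lower, and with quantile normalization 4 and 3. Without DK replicate 2, 3 were lower, and without HK replicate 5, 2.

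Principal cell genes went in both directions. The epithelial sodium channel has 3 subunits, and the alpha subunit gene moved against the others. Scnn1a was higher, at 34.3 to 61.3 FPKM in DK (median 45.7) and 23.9, 36.1, 28.7, 31.3 and 30.2 FPKM in HK, with a log2 difference of 0.60 ± 0.16 (SE, adjusted p = 0.0035). Scnn1b was lower, at 13 to 16.2 FPKM in DK (median 14.3) and 25.4, 31.5, 19.3, 19.0 and 17.1 FPKM in HK, with a log2 difference of -0.59 ± 0.17 (SE, adjusted p = 0.0073). Scnn1g was lower, at 7.93 to 14.1 FPKM in DK (median 10.7) and 19.8, 24.6, 17.4, 14.8 and 15.1 FPKM in HK, with a log2 difference of -0.74 ± 0.18 (SE, adjusted p = 0.0014). No DK library of Scnn1b or Scnn1g reached the lowest HK library. The 3 calls kept their direction and passed with library sums and with quantile normalization. Hsd11b2, which inactivates glucocorticoid and so protects the aldosterone receptor, was lower without overlap, at 135 to 196 FPKM in DK (median 144) and 282, 288, 218, 267 and 230.2 FPKM in HK, with a log2 difference of -0.76 ± 0.16 (SE, adjusted p = 4.14e-04). The receptor gene Nr3c2 had a log2 difference of -0.57 ± 0.19 (SE, adjusted p = 0.020), which became an adjusted p of 0.081 without DK replicate 3. Fitted with the libraries of the contrast alone, Nr3c2 had an adjusted p of 0.090. Among genes that steroids induce, Tsc22d3 (GILZ) stood at 78.6 to 134 FPKM in DK (median 98.5) and at 25.6, 53.3, 37.4, 60.1 and 42.6 FPKM in HK, with a log2 difference of 1.23 ± 0.18 (SE, adjusted p = 2.09e-06), and Usp2 at 24.3 to 35.5 FPKM in DK against 5.99 to 15.2 in HK, with a log2 difference of 1.33. Sgk1, the aldosterone-induced kinase, did not pass, with a log2 difference of 0.66 ± 0.29 (SE, adjusted p = 0.070), but was called higher without DK replicate 5, HK replicate 2 or HK replicate 4, at adjusted p of 0.024, 0.048 and 0.019. The water channel Aqp4 was higher, at 5.34 to 19.2 FPKM in DK against 0.995 to 3.2 in HK, and Aqp2 did not pass, at 49.4 to 158 FPKM in DK (median 80.6) and 78.2, 265, 102, 69.5 and 179.6 FPKM in HK, but was called lower without DK replicates 1 and 3, at an adjusted p of 0.040. Of 17 tested members, 5 were higher, 4 lower and 8 did not pass, with a median of -0.10 and 52.9% called against 36.4% of all genes.

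**Figure D4:**
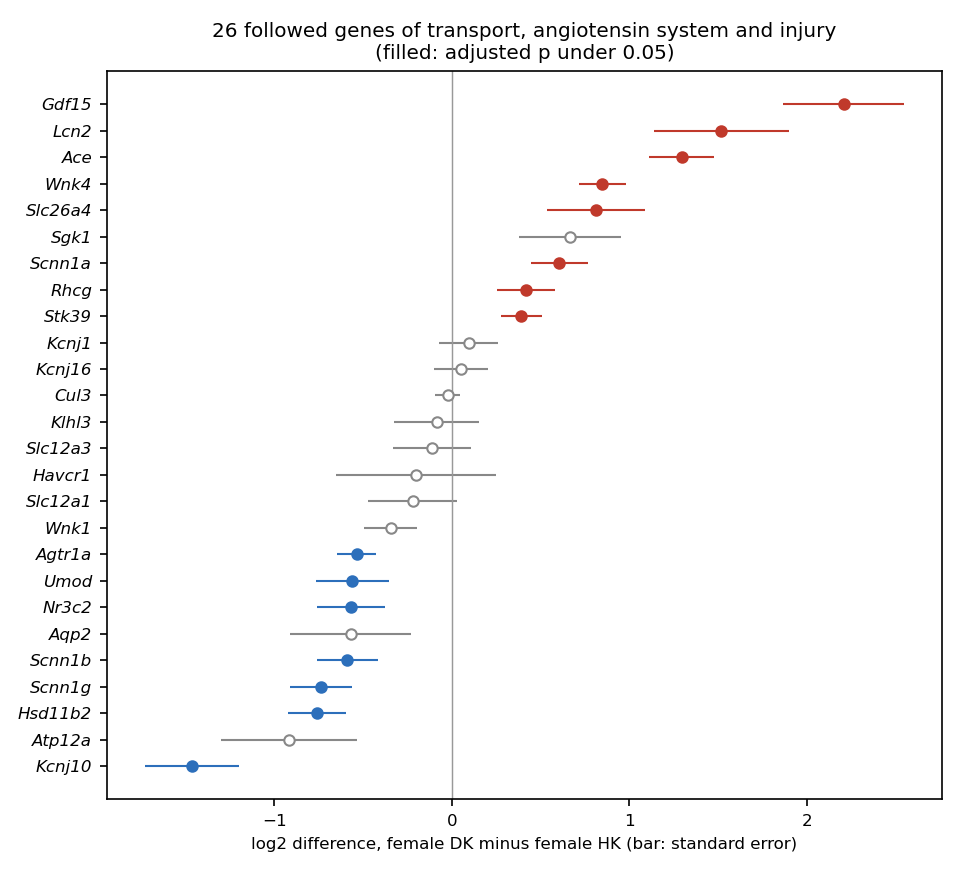
Log2 difference between female DK and HK with its standard error for the followed genes of transport, the angiotensin system and injury described here, each of them among the 28 tested of the 30 followed. Filled points had an adjusted p under 0.05, red higher and blue lower in DK. Among the genes plotted Gdf15, Lcn2 and Ace lie highest and Kcnj10 lowest, while Slc12a3, Kcnj1 and Slc12a1 lie near 0.

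Genes of the thick ascending limb were lower or did not pass. Of 11 tested members, 6 were lower, none higher in limma, and 5 did not pass. The median was -0.68, and 54.5% of the members were called against 36.4% of all genes. The paracellular channel gene Cldn16, needed for magnesium reabsorption, stood at 4.67 to 11.5 FPKM in DK (median 6.28) and at 10.7, 20.4, 13.7, 13.4 and 19.3 FPKM in HK, with a log2 difference of -1.12 ± 0.19 (SE, adjusted p = 3.16e-05). Cldn10 was at 23.6 to 54.3 FPKM in DK against 53.5 to 109 in HK, with a log2 difference of -0.93, and the calcium-sensing receptor Casr at 3.82 to 8.23 FPKM in DK against 9.18 to 13.7 in HK, with a log2 difference of -0.84 and no overlap. Slc12a1, the salt cotransporter NKCC2 of this segment, did not pass, at 82.8 to 176 FPKM in DK (median 95.9) and 75.7, 157, 116, 107 and 174 FPKM in HK, with a log2 difference of -0.22 ± 0.25 (SE, adjusted p = 0.52). Umod, uromodulin, had a log2 difference of -0.56 ± 0.20 (SE, adjusted p = 0.031), and this call was lost in 6 of the 11 fits that left out 1 library: DK replicate 2, 4 or 6, or HK replicate 2, 3 or 5, with adjusted p up to 0.11. Umod also lost its call with the libraries of the contrast alone, at an adjusted p of 0.081. Without DK replicate 4, DK replicate 5 or HK replicate 5, 1, 2 and 1 members of the list were called higher. These are bulk samples, in which fewer cells of a type and less RNA per cell cannot be told apart.

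Among 15 tested intercalated cell markers 6 were higher, none lower, and 9 did not pass, with a median of 0.33. The share called, 40%, was close to the 36.4% of all genes. The list summed to 709 to 1215 FPKM in DK and 599.8 to 738 in HK. The V-ATPase subunit gene Atp6v0a4 stood at 251 to 536 FPKM in DK (median 374) and at 219, 197, 196, 165 and 174 FPKM in HK, with a log2 difference of 0.99 ± 0.15 (SE, adjusted p = 4.97e-06), and another, Atp6v1g3, at 43.7 to 96.3 FPKM in DK against 29.8 to 38.7 in HK, with a log2 difference of 1.12. Slc26a4, pendrin, a chloride-bicarbonate exchanger, had a log2 difference of 0.81 ± 0.28 (SE, adjusted p = 0.020), and lost its call without HK replicate 3 or HK replicate 5, at adjusted p up to 0.067, and with library sums, at 0.064. With library sums, and without HK replicate 3 or 5, 3 markers were higher.

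Proximal tubule transporters went in both directions. Of 31 tested, 9 were higher, 10 lower and 12 did not pass, with a median of -0.16 and 61.3% called against 36.4% of all genes. With library sums 7 were higher and 14 lower. The citrate carrier Slc13a2 stood at 101 to 239.7 FPKM in DK (median 170.4) and at 76.6, 74.7, 69.8, 67.3 and 70.5 FPKM in HK, with a log2 difference of 1.26 ± 0.15 (SE, adjusted p = 9.34e-08). The lactate carriers Slc5a8 and Slc5a12 stood at 50.3 to 232 FPKM in DK against 46.7 to 65.0 in HK and 89.0 to 204 FPKM in DK against 57.9 to 81.8 in HK, with log2 differences of 1.37 and 1.16. The anion carrier Slc22a7 (OAT2) was lower, at 12.7 to 47.1 FPKM in DK (median 29.3) and 50.1, 72.9, 69.7, 69.6 and 118 FPKM in HK, with a log2 difference of -1.49 ± 0.38 (SE, adjusted p = 0.0027). Lrp2, megalin, the receptor for filtered proteins including Rbp4, was lower without overlap, at 64.4 to 174 FPKM in DK (median 136) and 234, 279, 346.4, 256 and 248 FPKM in HK, with a log2 difference of -1.12 ± 0.18 (SE, adjusted p = 1.73e-05). Markers of the proximal tubule cell as a whole did not move together: 3 of 10 were higher, 2 lower and 5 did not pass. Their median was 0.15, and 50% of them were called against 36.4% of all genes. With quantile normalization none was higher and 3 lower. The water channel Aqp1 did not pass, with a log2 difference of 0.18 ± 0.10 (SE, adjusted p = 0.16).

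Vitamin D and mineral handling held some of the steepest changes. Of 16 tested members, 6 were higher, 4 lower and 6 did not pass, with a median of 0.10 and 62.5% called against 36.4% of all genes. With library sums 6 were higher and 8 lower, with a median of -0.12. Cyp27b1, which makes active vitamin D, stood at 10.4 to 31.3 FPKM in DK (median 20.3) and at 0.959, 1.10, 0.602, 1.37 and 0.271 FPKM in HK, with a log2 difference of 3.88 ± 0.36 (SE, adjusted p = 6.55e-10). Cyp24a1, which degrades it, was higher at the same time, at 27.7 to 111 FPKM in DK (median 63.0) and 16.6, 12.3, 13.5, 12.7 and 7.49 FPKM in HK, with a log2 difference of 2.26 ± 0.31 (SE, adjusted p = 8.87e-07). The calcium-binding protein gene S100g (calbindin-D9k) stood at 11.2 to 90.1 FPKM in DK (median 45.7) and at 3.16, 2.20, 4.59, 1.39 and 2.60 FPKM in HK, with a log2 difference of 3.73 ± 0.36 (SE, adjusted p = 1.45e-09). Kl, which encodes the FGF23 co-receptor klotho, was lower in every DK library, at 15.4 to 43.8 FPKM in DK (median 38.1) and 66.6, 83.7, 117, 77.3 and 76.8 FPKM in HK, with a log2 difference of -1.29 ± 0.22 (SE, adjusted p = 2.19e-05). The sodium-phosphate carrier Slc20a1 was higher, at 21.9 to 38.8 FPKM in DK against 13.8 to 15.5 in HK, with a log2 difference of 1.02, while the main luminal carriers Slc34a1 and Slc34a3 did not pass, with log2 differences of -0.38 and -0.42. Slc34a1 and Slc34a3 were called lower with library sums, at adjusted p of 9.15e-04 and 0.012, and Slc34a1 without DK replicate 5, at 0.048.

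The glutathione and antioxidant list had the highest median of the 21 pathway lists, 0.84. Of 24 tested members, 17 were higher, 1 lower and 6 did not pass, with 75% called against 36.4% of all genes. Besides Gstm1, the transferase gene Gstp1 stood at 429 to 1495 FPKM in DK against 168 to 307 in HK, with a log2 difference of 1.81, Gsta3 at 56.2 to 132 FPKM in DK against 11 to 28.5 in HK, with a log2 difference of 2.58, and Gsta5 at 228 to 441 FPKM in DK against 73.2 to 109.7 in HK, with a log2 difference of 2.06. Reads of these similar genes may have been split between copies, so single members are uncertain. The exception was Gclc, the catalytic subunit of the enzyme that limits glutathione synthesis, at 92.0 to 279.6 FPKM in DK (median 159) and 582, 1019, 1116, 563 and 1183 FPKM in HK, with a log2 difference of -2.41 ± 0.39 (SE, adjusted p = 1.58e-05) and no overlap. Its modifier subunit Gclm and the next enzyme Gss did not pass, with log2 differences of -0.18 and -0.45. With library sums 14 were higher and 3 lower, and with quantile normalization 15 and 5.

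Peroxisomal and microsomal fatty acid oxidation was higher in part. Of 26 tested members, 11 were higher, 1 lower and 14 did not pass, with a median of 0.31 and 46.2% called against 36.4% of all genes. The counts were 6 higher and 4 lower with library sums and 5 and 3 with quantile normalization. The omega-hydroxylase Cyp4a2, which makes 20-HETE in the kidney, stood at 1411 to 3084 FPKM in DK (median 2087) and at 712, 666, 495, 579.7 and 389 FPKM in HK, with a log2 difference of 1.97 ± 0.16 (SE, adjusted p = 7.43e-11). Pex11a, of peroxisome division, was lower, at 12.6 to 28.2 FPKM in DK against 26.7 to 44.5 in HK, with a log2 difference of -0.68. Calls covered 41.7% of the cholesterol synthesis list, close to the 36.4% of all genes. Cholesterol synthesis showed no common direction, with 6 of 24 tested members higher, 4 lower, 14 not passing and a median of 0.02. Without DK replicate 3, without HK replicate 5 or without DK replicates 1 and 3, 2 were lower. With library sums the list had 5 members higher and 7 lower. Within it Dhcr7, the last enzyme of the pathway, was higher without overlap, at 35.6 to 95.5 FPKM in DK (median 53.7) and 14.2, 17.1, 15.6, 11.5 and 20.8 FPKM in HK, with a log2 difference of 1.82 ± 0.20 (SE, adjusted p = 3.19e-08), and Insig1 had a log2 difference of 1.33.

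Retinoid, thyroid and steroid genes were called in 13 of 17 tested members (76.5%, against 36.4% of all genes), 8 higher and 5 lower, with a median of 0.42. Beyond Rbp4, Dio1 and Akr1b7, the retinol dehydrogenase Rdh16 was lower, at 0.564 to 1.45 FPKM in DK against 4.63 to 10.1 in HK, with a log2 difference of -2.39. Cyp2e1, an ethanol-oxidizing cytochrome, was higher, at 685 to 1445 FPKM in DK (median 1102) and 149, 143, 221, 108 and 129 FPKM in HK, with a log2 difference of 2.79 ± 0.23 (SE, adjusted p = 8.06e-11). Of 19 tested xenobiotic genes, 9 were higher, 4 lower and 6 did not pass, with a median of 0.14 and 68.4% called against 36.4% of all genes. The epoxygenase Cyp2c23, which makes epoxyeicosatrienoic acids in rat kidney, stood at 1754 to 3179.7 FPKM in DK (median 2482) and at 953, 859, 1191, 767 and 847 FPKM in HK, with a log2 difference of 1.45 ± 0.17 (SE, adjusted p = 5.52e-08). Microsomal epoxide hydrolase Ephx1 stood at 281 to 1375 FPKM in DK against 82.9 to 115 in HK, with a log2 difference of 2.79, and the carboxylesterase Ces1d was lower, at 7.28 to 14.2 FPKM in DK against 34.9 to 85.0 in HK, with a log2 difference of -2.30.

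In the angiotensin system, 3 of 10 tested members were higher, 4 lower and 3 did not pass. The median was -0.41, and 70% of the members were called against 36.4% of all genes. Angiotensin II is made from angiotensinogen, the product of Agt, in steps of which the last is carried out by the converting enzyme, the product of Ace. Ace stood at 6.14 to 11.9 FPKM in DK (median 7.12) and at 2.51, 2.52, 3.56, 2.69 and 2.71 FPKM in HK, without overlap and with a log2 difference of 1.29 ± 0.18 (SE, adjusted p = 2.02e-06). The angiotensin II receptor gene Agtr1a was lower, at 12.5 to 20.4 FPKM in DK (median 15.9) and 22.0, 23.6, 20.9, 24.6 and 25.0 FPKM in HK, with a log2 difference of -0.54 ± 0.11 (SE, adjusted p = 3.13e-04). Agt did not pass, with a log2 difference of -0.29.

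Tubular injury genes were higher in 13 of 24 tested members and lower in 1, with 10 not passing and a median of 0.55. Calls covered 58.3% of the list, against 36.4% of all genes. Gdf15, a stress-induced cytokine, stood at 127 to 402 FPKM in DK (median 249.9) and at 43.7, 57.1, 41.4, 43.0 and 53.1 FPKM in HK, with a log2 difference of 2.21 ± 0.34 (SE, adjusted p = 7.21e-06). The simple keratin Krt8 stood at 339.5 to 595 FPKM in DK (median 515) and at 163, 119.6, 128, 165 and 134 FPKM in HK, with a log2 difference of 1.80 ± 0.20 (SE, adjusted p = 2.65e-08), and no DK library of either gene lay in the HK range. Lcn2 (NGAL) was at 57.2 to 286 FPKM in DK (median 118) and 54.6, 50.1, 27.3, 61.8 and 36.6 FPKM in HK, with a log2 difference of 1.52 ± 0.38 (SE, adjusted p = 0.0022). Havcr1 (KIM-1), the marker of injured proximal tubule, did not pass: 14.9 to 118 FPKM in DK (median 26.0) against 55.6, 33.6, 23.9, 75.3 and 26.1 FPKM in HK, with a log2 difference of -0.20 ± 0.45 (SE, adjusted p = 0.76). Its highest DK values lay in DK replicates 1 and 3, at 118 and 75.0 FPKM, which were also the highest DK libraries of Lcn2, at 234 and 286. Without these 2 libraries, 10 members were higher and 1 lower, and with quantile normalization 9 were higher and 2 lower. Of growth factor genes, 4 of 18 were higher, 5 lower and 9 did not pass, with a median of -0.01 and 50% called against 36.4% of all genes. With library sums 2 were higher and 7 lower. Igfbp1, a binding protein of insulin-like growth factors, stood at 282 to 1098 FPKM in DK (median 617) and at 76.9, 164, 55.3, 87.4 and 80.5 FPKM in HK, with a log2 difference of 2.75 ± 0.36 (SE, adjusted p = 5.43e-07). Leaving out DK replicate 2 left 2 members of this list higher, and leaving out DK replicates 1 and 3 together, DK replicate 1 or 4, or HK replicate 1, 2, 4 or 5 left 3 lower.

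In the endoplasmic reticulum stress list, which holds chaperones and factors of protein folding, 6 of 18 tested members were lower, 1 higher and 11 did not pass, with a median of -0.19. The share called, 38.9%, was close to the 36.4% of all genes, so the members are described singly. Without DK replicates 1 and 3, and with quantile normalization, 2 members were higher. A conserved promoter element, ERSE, is known to drive such chaperones, so its share in this list is no result about the diets. Hspa5 and Calr, which were lower, carry it, as do Hsp90b1 and Xbp1, which did not pass. Searched on both strands as CCAAT and CCACG with 9 bases of any kind between them, in the 250 bases before each start in RefSeq promoters (GRCr8), it was in 22 of 33469 promoters (0.0657%) and in 4 of the 15 list members with a promoter. The 4, printed 5′ to 3′ on the gene's strand with 15 bases on each side and the fixed letters of the motif in capitals, were Hspa5 at chr3:38452958-38453006 (plus strand), Calr at chr19:40213120-40213168 (plus strand), Hsp90b1 at chr7:23012436-23012484 (minus strand) and Xbp1 at chr14:84604543-84604591 (plus strand):
Hspa5: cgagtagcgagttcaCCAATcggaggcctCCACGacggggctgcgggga
Calr: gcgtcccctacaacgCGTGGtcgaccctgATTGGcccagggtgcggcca
Hsp90b1: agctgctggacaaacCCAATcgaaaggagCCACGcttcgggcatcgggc
Xbp1: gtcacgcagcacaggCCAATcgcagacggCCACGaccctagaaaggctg
Hspa5, the chaperone BiP, stood at 135 to 225 FPKM in DK (median 158) and at 364.8, 428, 389.9, 299 and 291 FPKM in HK, with every DK library below every HK library and a log2 difference of -1.07 ± 0.17 (SE, adjusted p = 7.74e-06). Calr, calreticulin, a lectin chaperone, was lower, at mean levels of 348.5 FPKM in DK and 417 in HK and a log2 difference of -0.27 ± 0.10 (SE, adjusted p = 0.038). Hsp90b1, the chaperone GRP94, did not pass, at mean levels of 150.3 FPKM in DK and 178 in HK and a log2 difference of -0.24 ± 0.12 (SE, adjusted p = 0.11). Xbp1, a transcription factor of the stress response, did not pass, at mean levels of 107 FPKM in DK and 125 in HK and a log2 difference of -0.23 ± 0.13 (SE, adjusted p = 0.16). Calr lost its call without DK replicate 1, 2, 4 or 5 or HK replicate 1, 2, 3 or 4. Its adjusted p was then 0.050 to 0.10, and it was 0.12 with the libraries of the contrast alone. Calr, Hsp90b1 and Xbp1 were named for the motif, after their values were seen. Among members without the motif in this window, Sdf2l1, a cofactor of BiP, stood at 9.36 to 18.9 FPKM in DK (median 11.7) and at 29.7, 33.6, 33.4, 27.6 and 29.8 FPKM in HK, with a log2 difference of -1.31 ± 0.16 (SE, adjusted p = 2.33e-07). Pdia4, which forms disulfide bonds, stood at 28.6 to 39.1 FPKM in DK against 48.1 to 64.0 in HK, with a log2 difference of -0.69. Dnajb9 was the member that rose, with a log2 difference of 0.48 ± 0.12 (SE, adjusted p = 0.0017).

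Interferon-stimulated genes were lower in 12 of 22 tested members, higher in 2 and not passing in 8. The median was -0.44, and 63.6% of the members were called against 36.4% of all genes. Every DK library lay below every HK library in 12 of the 22 tested members, against 7.12% of all genes, and these were the 12 called lower. Oas2, among them, stayed below 1 FPKM in all 11 libraries, at 0.051 to 0.699, and passed the filter through other groups. Irf7, a transcription factor of this response, stood at 3.88 to 6.55 FPKM in DK (median 4.56) and at 13, 13.3, 12.2, 10.7 and 14.1 FPKM in HK, with a log2 difference of -1.32 ± 0.21 (SE, adjusted p = 7.74e-06). The antiviral GTPases Mx1 and Mx2 stood at 0.448 to 1.48 FPKM in DK against 3.25 to 3.98 in HK and 1.06 to 1.75 FPKM in DK against 4.05 to 5.8 in HK, with log2 differences of -1.51 and -1.47. Oas1a, an oligoadenylate synthetase, stood at 0.476 to 1.17 FPKM in DK (median 0.939) and 3.005, 3.47, 2.32, 1.94 and 3.66 FPKM in HK, with a log2 difference of -1.25 ± 0.20 (SE, adjusted p = 9.86e-06). The element through which interferon is known to act, ISRE, was searched on both strands as TTTC, any 2 bases and TTTC again, so that copies may overlap. It was in 1140 of the same 33469 promoters (3.41%) and in 10 of 16 list members with a promoter. The list was made of interferon-stimulated genes, so this share is no result about the diets. The 10 include Cxcl10, which was higher, and Ifit3, Rsad2 and Ifi27, which did not pass, and do not include Mx1 or Mx2. Irf7 (chr1:205800068-205800107 (minus strand)) and Oas1a (chr12:41330410-41330455 (plus strand)) are shown as lower members described above, with the fixed letters in capitals:
Irf7: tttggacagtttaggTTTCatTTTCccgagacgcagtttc
Oas1a: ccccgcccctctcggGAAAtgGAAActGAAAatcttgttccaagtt
The rises included Psmb8, an immunoproteasome subunit, at 6.4 to 14.4 FPKM in DK against 3.85 to 6.33 in HK, with a log2 difference of 1.04 ± 0.19 (SE, adjusted p = 5.20e-05). Lymphocyte markers moved with this group: 7 of 12 tested were lower and none higher, with 5 not tested, 4 were lower without HK replicate 1 or with quantile normalization, and the list summed to 24.6 to 37.2 FPKM in DK and 32.1 to 57.3 in HK. Calls covered 58.3% of the tested lymphocyte markers, against 36.4% of all genes. Il2rb stood at 0.542 to 1.18 FPKM in DK against 1.56 to 2.55 in HK, and Ptprc, the pan-leukocyte marker CD45, at 1.63 to 3.95 FPKM in DK against 3.65 to 6.59 in HK. The chemokine Ccl2, which draws monocytes, was lower, at 1.26 to 2.97 FPKM in DK (median 2.22) and 8.71, 5.34, 5.8, 8.71 and 11 FPKM in HK, with a log2 difference of -1.62 ± 0.21 (SE, adjusted p = 3.76e-07). Macrophage and myeloid markers went in both directions. C1qb, at 45.1 to 95.3 FPKM in DK against 21.4 to 32.1 in HK, and Gpnmb, at 26.6 to 55.8 FPKM in DK against 7.37 to 17.6 in HK, were higher. Adgre1, Aif1, Itgax and Ccr2 were lower, as was Ccl2, and Cd68 and Csf1r did not pass. Ccr2 was at 0 FPKM in 5 of the 11 libraries and at most 1.02 FPKM in any. Of 18 myeloid markers 6 were higher, 5 lower and 7 did not pass, with a median of 0.002 and 61.1% called against 36.4% of all genes. The myeloid list summed to 531 to 904 FPKM in DK and 430.0 to 586 in HK. The part of cell number in these results was not tested.

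Proliferation genes were lower in 18 of 23 tested members, higher in 2 and not passing in 3, so 87.0% were called against 36.4% of all genes. Their median was -0.81, the lowest of the 21 lists. With quantile normalization 13 were lower and the median was -0.62, above those of the thick ascending limb and matrix lists, at -0.73 and -0.71. Of the 23 members, 4 stayed below 1 FPKM in all 11 libraries and passed the filter through other groups, all 4 of them among those lower, and a filter within the 11 libraries left 11 lower. Top2a, the topoisomerase of dividing cells, stood at 0.133 to 0.767 FPKM in DK (median 0.310) and at 2.08, 1.74, 2.26, 1.57 and 1.25 FPKM in HK, with a log2 difference of -1.41 ± 0.17 (SE, adjusted p = 1.14e-07). Mki67 stood at 0.126 to 0.525 FPKM in DK against 0.747 to 1.72 in HK, with a log2 difference of -1.03, and Cdc20, an activator of the anaphase-promoting complex, at 1.68 to 3.03 FPKM in DK against 4.10 to 5.8 in HK, with a log2 difference of -0.97, and the groups of all 3 did not overlap. Top2a and Mki67 lay below 1 FPKM in every DK library, where the added 0.5 compresses the folds. The lowest HK library of Mki67, at 0.747 FPKM, was below 1 as well, so Mki67 too passed the filter only through other groups. The highest DK value of Top2a was 0.767 FPKM, in DK replicate 1.

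Matrix genes were lower in 16 of 28 tested members and higher in 2, with 10 not passing and a median of -0.57. Calls covered 64.3% of the list, against 36.4% of all genes. Col6a3 stood at 1.13 to 3.69 FPKM in DK (median 1.54) and at 13.4, 7.90, 7.50, 10.4 and 6.63 FPKM in HK, with a log2 difference of -2.08 ± 0.22 (SE, adjusted p = 1.59e-08). Col1a1 stood at 2.93 to 17.0 FPKM in DK (median 3.26) and at 27.7, 15.3, 14.6, 22.0 and 19.6 FPKM in HK, with a log2 difference of -2.03 ± 0.31 (SE, adjusted p = 6.46e-06), and its overlap with HK came from DK replicate 1, the highest of the DK group. Loxl2, which crosslinks collagen, was at 1.14 to 3.21 FPKM in DK against 4.37 to 8.08 in HK, with a log2 difference of -1.49. Of the other members of its family in the list, Lox was higher and Loxl1 did not pass. Without DK replicates 1 and 3, 20 members were lower and 1 higher, and with quantile normalization 16 and 1. Of 8 tested fibroblast markers 4 were lower and 1 higher, with Mfap5 not tested and 62.5% called against 36.4% of all genes. Lum, Col1a1 and Col3a1 among the lower, and the higher Dcn, are also in the matrix list, so the lists are not independent. Dpt, dermatopontin, a fibroblast marker outside the matrix list, stood at 4.88 to 12.4 FPKM in DK (median 7.79) and at 40.02, 25.8, 33.9, 25.0 and 33.7 FPKM in HK, with a log2 difference of -1.99 ± 0.22 (SE, adjusted p = 2.04e-08). The sum of the fibroblast list was nevertheless 298 to 489.7 FPKM in DK and 271.6 to 366.8 in HK, because decorin, Dcn, at 316 ± 75.8 FPKM in DK (SD, n = 6) and 196 ± 31.4 in HK (SD, n = 5), dominates it. The decorin rise, at a log2 difference of 0.67 ± 0.19 (SE, adjusted p = 0.0058), lost its call with quantile normalization, at a log2 difference of 0.32 (adjusted p = 0.25), with library sums, at an adjusted p of 0.079, and without DK replicates 1 and 3, at 0.059, and no fibroblast marker was then called higher in limma under any of the 3. The part of fibroblast number in the matrix result was not tested.

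Podocyte markers were lower in 8 of 12 members, and 4 did not pass, with a median of -0.53, but without DK replicates 1 and 3 only 4 were lower. The 8 made up 66.7% of the list, where 17.8% of all genes were lower, and the list summed to 169 to 233 FPKM in DK and 267 to 330.1 in HK. Npnt, nephronectin, stood at 10.1 to 29.4 FPKM in DK (median 26.4) and at 42.8, 53.9, 49.1, 47.8 and 38.7 FPKM in HK, with a log2 difference of -1.01 ± 0.18 (SE, adjusted p = 6.25e-05). Nphs1, nephrin, did not pass, with a log2 difference of -0.36. Of 12 smooth muscle, mesangial and pericyte markers 5 were lower and none higher, with a median of -0.37, and of 12 endothelial markers 4 were lower and none higher, with a median of -0.05. The shares called, 41.7% and 33.3%, lay near the 36.4% of all genes. Without DK replicate 1, 2 endothelial markers were higher, and without DK replicates 1 and 3, 3 were. Vwf stood at 2.03 to 7.98 FPKM in DK (median 3.77) and 7.57, 12, 12.9, 9.12 and 20.7 FPKM in HK, with a log2 difference of -1.52 ± 0.25 (SE, adjusted p = 1.53e-05). Red blood cell markers did not pass in any of 5 tested members, and 1 was called higher without DK replicates 1 and 3.

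Clock genes were called in 8 of 17 tested members (47.1%, against 36.4% of all genes), 4 higher and 4 lower, with a median of -0.05. With library sums 1 was higher and 7 lower. Without DK replicate 2, HK replicate 3, HK replicate 5, or DK replicates 1 and 3 together, 2 were higher. Nr1d1 (REV-ERBα), a repressor of the clock, stood at 7.72 to 34.8 FPKM in DK (median 14.5) and at 55.9, 50.5, 45.0, 35.5 and 58.9 FPKM in HK, with a log2 difference of -1.73 ± 0.28 (SE, adjusted p = 1.62e-05), and Dbp, its fellow output gene, at 34.8 to 109.9 FPKM in DK against 102 to 177 in HK, with a log2 difference of -1.10. Cry1 was higher, at 5.26 to 10.1 FPKM in DK (median 7.90) and 1.37, 1.71, 3.29, 2.17 and 1.94 FPKM in HK, with a log2 difference of 1.68 ± 0.24 (SE, adjusted p = 2.51e-06). The labels give no hour of collection, so the part of the time of day was not tested.

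Males on the same diets allowed a test of whether these differences were particular to females. The difference between the sexes in DK against HK was called for 777 genes (5.45%), of which 752 were called in females. In all 752 the male difference was smaller or of the opposite sign, opposite in 253, a count that choosing genes called in both tests favours and that is given as a description. For Rbp4 the log2 difference was 7.50 in females and 1.64 in males, with an adjusted p of 6.26e-05 for the sex difference in limma. Tat had 4.94 and 0.63 (adjusted p = 2.14e-08), Sds 3.46 and 0.20 (adjusted p = 7.40e-04), and S100g 3.73 and 0.51 (adjusted p = 8.52e-05). Hif3a, a hypoxia-inducible factor subunit, stood at 4.43 to 7.67 FPKM in DK against 0.0964 to 0.607 in HK in females, with a log2 difference of 2.93 against 0.29 in males (adjusted p = 2.14e-08). Among the falls, Akr1b7 had -3.88 in females and 0.02 in males (adjusted p = 5.53e-05), Nkx1-2 -3.12 and -0.30 (adjusted p = 1.87e-06), and Oat -2.02 and 0.03 (adjusted p = 1.53e-04). Akr1b7 is nearly silent in males on either diet, at no more than 0.0938 FPKM in any male DK or HK library, so a fall there could not be seen. Nkx1-2 was low in males as well, at means of 1.47 FPKM in DK and 1.76 in HK.

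For other genes the male difference had the same direction and the sex difference did not pass. Pck1 had 2.29 in females and 1.32 in males (adjusted p = 0.13), Cyp27b1 3.88 and 2.54 (adjusted p = 0.12), and Fam25a 5.66 and 3.61 (adjusted p = 0.094). Of the 6 male DK libraries 5 carry sample numbers in the 200s, whereas all female libraries of the contrast lie in the 300s. With the number series as a covariate 350 genes were called, and with weights per library 1483, so the count of the sex difference depends on how the male DK libraries and DK replicates 1 and 3 are treated.

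**Figure D5:**
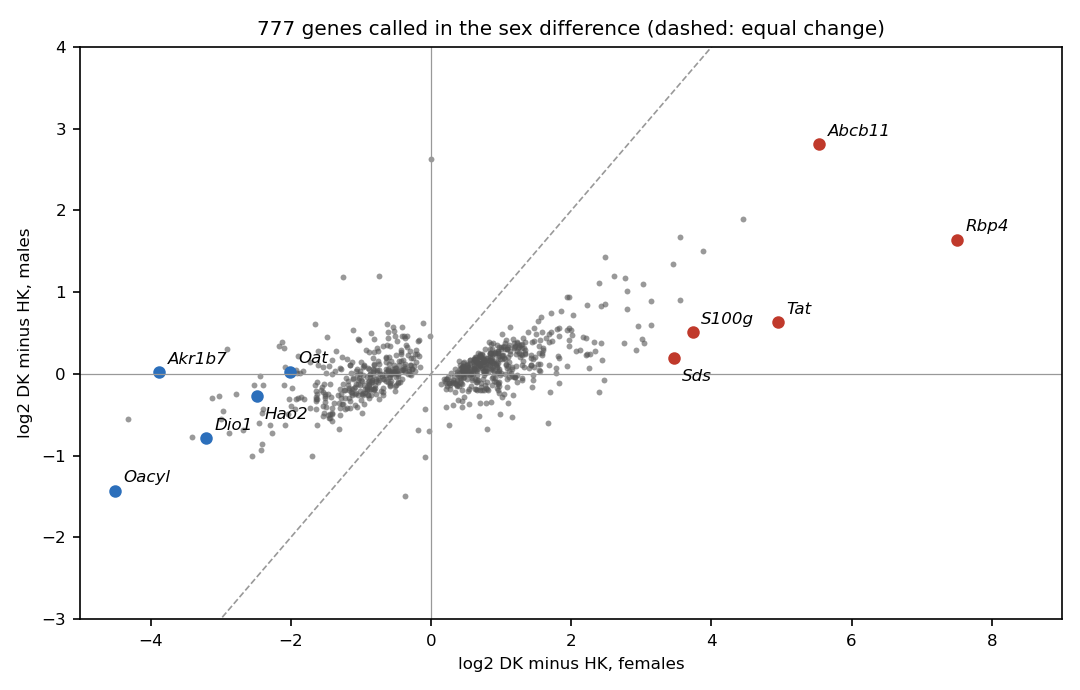
Log2 difference between DK and HK in females (x axis) and males (y axis) for the 777 genes called in the sex difference. Each point is a gene, the dashed line marks an equal difference, and the colored points are named. The genes were chosen for a difference between the sexes, so they lie away from the dashed line by construction. Rbp4 lies at 7.50 in females and 1.64 in males.

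Many of the falls were in genes that are more abundant in female than in male cortex. On the NK diet, whose libraries are not in the contrast, 85 of the genes over 2-fold lower in DK (23.2%) were over 2-fold higher in females than in males, against 253 of all 14264 genes (1.77%). Among the 360 genes over 2-fold higher in DK this was 17 (4.72%). The reverse, over 2-fold lower in females than in males on NK, held for 28 of the 360 (7.78%), 5 of the genes over 2-fold lower (1.36%) and 201 of all genes (1.41%). Oat was at 2226 ± 398 FPKM in female NK and 341 ± 143 in male NK libraries (mean ± SD, n = 6 each), and fell to 529.8 ± 149 in female DK. Nkx1-2 was at 26.1 ± 4.58 and 1.93 ± 0.939 on NK and at 2.64 ± 0.952 in female DK, and Akr1b7 at 57.1 ± 35.7 and 0.00732 ± 0.0179 on NK and at 4.42 ± 2.85 in female DK. These are descriptions with no test, and 4 of the 6 female NK libraries lie in the 200s against none of the 6 male NK libraries.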

How the data were processed

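RNA was isolated with Trizol, per the labels' protocols, poly-T beads captured messenger RNA, and sequencing was done on Illumina instruments. Directional and non-directional libraries are both described, and which was made is not stated. Per the submitters' processing notes, the tools were HISAT2 2.0.5, featureCounts 1.5.0-p3, StringTie 1.3.3b and fastp, and the genome build was not given in the sources used here. What the authors deposited is 1 table of FPKM values with gene lengths. Multiplied by length, FPKM came out at whole reads, to within 0.01 read, for 100% of values, and the library sizes implied carry a scaling by the authors. Recovered reads served for depth, library sums and voom; a count test on them (voom) called 5174 genes.

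Values were used as log2 of FPKM plus 0.5, so differences of low genes are understated. All 35 libraries were fitted in limma 3.58.1 with 6 group means, a variance trend and 29 residual degrees of freedom, for the contrasts of female DK minus HK and its difference from males. Benjamini-Hochberg adjustment of p-values ran over 14264 genes, called under 0.05. Ranges, medians and SD are of FPKM; male differences are given beside female ones with no claim of their own. Chi-square per gene between libraries of a group was 13.7 to 85.9, so none was a copy. No columns were left unmapped. The fit was tested on simulated data.

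Genes were named by rule: the 15 largest rises and falls by log2 among called, named genes whose higher group had a mean of at least 2 FPKM, the 10 each way by FPKM, up to 6 called and 2 other members of each list, 30 followed genes, and the 8 largest sex differences each way. The text names a part of them, and some results are not reported here. The 21 pathway and 12 marker lists (604 entries, 547 tested, 42 below the filter, 15 unmatched) and the members were chosen with earlier results of these data known. The alternatives tried were pseudocounts of 0.1 and 1, a filter within the 11 libraries or none, median-ratio, quantile and library-sum scaling, the libraries of the contrast alone, library weights, a replicate block, the number series, voom and leaving out each library; leaving out DK replicates 1 and 3 together was chosen after seeing the data. Promoters came from RefSeq (GRCr8); 15 of 18 endoplasmic reticulum and 16 of 23 interferon members matched by symbol. Software was Python 3.11.15, numpy 2.4.6, pandas 2.3.3 and matplotlib 3.10.9.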

Additional observations from a re-analysis of the deposited data

Results flagged for a closer look

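Of the genes named in the report, 62 differed between the sexes in their DK against HK difference, by the interaction test in limma at an adjusted p under 0.05. The values are male minus female log2 differences. The difference was below 0, with a female difference above 0 and a male difference smaller, in 30 genes. For these genes the male minus female values began with Rbp4 -5.86, Tat -4.31, Sds -3.27, S100g -3.22, Abcb11 -2.73, Sult1a1 -2.65, Cldn22 -2.65, Hif3a -2.64, Gstm1 -2.55 and Cldn24 -2.38. They continued with Igfbp1 -2.37, Bhmt -2.24, Tf -2.10, Cyp24a1 -2.02, Cyp2e1 -2.002, Slc38a3 -1.88, Gsta5 -1.78, Ephx1 -1.77, Gdf15 -1.76 and Gstp1 -1.60. The smallest of these were Prodh -1.58, Gpt -1.41, Dhcr7 -1.36, Cyp2c23 -1.27, Ace -1.19, Cyp4a2 -1.03, Glud1 -0.9999, Tsc22d3 -0.91, Slc20a1 -0.53 and Atp1b1 -0.46. The difference was above 0, with a female difference below 0 and a male difference nearer to 0 or above it, in 32 genes. The largest positive values were Akr1b7 3.90, Oacyl 3.08, Nkx1-2 2.83, Slc16a14 2.54, Dio1 2.42, Hnmt 2.40, Hao2 2.22, Oat 2.04, Kcne1 1.99, Rdh16 1.96 and Slc22a7 1.94. Smaller ones were Gclc 1.92, Col1a1 1.72, Ces1d 1.68, Dpt 1.596, Miox 1.49, Col6a3 1.45, Ccl2 1.38, Mx1 1.26, Mx2 1.22, Vwf 1.17 and Oas1a 1.13. The rest were Irf7 1.07, Pex11a 1.02, Kl 0.99, Sdf2l1 0.95, Cldn16 0.94, Top2a 0.92, Lrp2 0.86, Scnn1g 0.79, Cdc20 0.71 and Il2rb 0.66. These differences change in number with the number series and the library weights, as given with the dependence on processing. Among these genes Oacyl and Nkx1-2 were low in males, where the added 0.5 compresses differences. Oacyl had medians of 0.158 FPKM in male DK and 1.89 in male HK, and Nkx1-2 means of 1.47 and 1.76.

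A single library lay far from the rest of its group, by Dixon's gap test, in 18 of 260 groups of values tested, 16 in DK and 2 in HK. Chance alone would mark about 1 in 20. DK replicate 1 accounted for 10 of them and DK replicate 3 for 3. DK replicate 1 was the highest of its group in Ace at 11.9 FPKM (nearest other 7.77), Aqp4 at 19.2 FPKM (nearest other 9.38), Cldn16 at 11.5 FPKM (nearest other 7.13), Col1a1 at 17.0 FPKM (nearest other 3.79), Col6a3 at 3.69 FPKM (nearest other 1.91), Gatm at 280.1 FPKM (nearest other 131), Kcnj1 at 153 FPKM (nearest other 102), Loxl2 at 3.21 FPKM (nearest other 1.88) and Slc12a1 at 176 FPKM (nearest other 106). DK replicate 1 was the lowest of its group in Slc26a4 at 22.2 FPKM (nearest other 43.8). DK replicate 2 was the lowest of its group in Gclm at 529 FPKM (nearest other 679). DK replicate 3 was the highest of its group in C1qb at 95.3 FPKM (nearest other 57.3). DK replicate 3 was the lowest of its group in Kl at 15.4 FPKM (nearest other 33.2) and Npnt at 10.1 FPKM (nearest other 23.7). DK replicate 5 was the highest of its group in Nr1d1 at 34.8 FPKM (nearest other 16.0). DK replicate 6 was the highest of its group in Hsd11b2 at 196 FPKM (nearest other 154). HK replicate 3 was the highest of its group in Ace at 3.56 FPKM (nearest other 2.71). HK replicate 5 was the highest of its group in Akr1b7 at 145 FPKM (nearest other 62.3).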

How the results depend on the processing

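The count of 5188 genes called in female DK against HK was 3587 to 6452 over the alternatives chosen earlier and 4440 to 5822 when each of the 11 female libraries was left out, all within 1.5 times. The fit of the contrast's libraries alone called 3587, of which 3527 were among the 5188. Library sums gave 1200 higher and 5252 lower, and quantile normalization 2314 and 2429. The count of 777 for the sex difference was 1483 with library weights, 350 with the number series as covariate and 1182 without DK replicates 1 and 3, an alternative chosen after seeing the data. It was 598 to 1110 over the leave-one-out fits. The cause was not tested. Replicate numbers did not pair the libraries: same-numbered DK and HK libraries had correlations of -0.18 to 0.05 of their deviations from the group means, and none correlated best with its own number. The replicate block gave 4964 genes, and 658 for the sex difference.

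Of 130 named genes, 109 kept their direction and their side of the threshold in all 23 alternatives for females and 21 changed in at least 1. Kcnj16 reversed with quantile normalization, at -0.36 (adjusted p = 0.029), with the cause not tested. Gpx3 lost its call with no filter, at an adjusted p of 0.24. Of 64 counts of list members higher or lower, 19 moved by over 1.5 times with library sums, 13 with quantile normalization, 10 without DK replicates 1 and 3, 7 with library weights, 3 or fewer in each of the other settings except without HK replicate 5, with 6. Within the 11 libraries alone, the filter left 11 proliferation genes lower in place of 18, since fewer low genes were tested.

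Depth limits the lowest genes: at 14.56 to 28.66 M reads, levels below 1 FPKM rest on few reads, and the 0.5 added sets their log2 differences. The libraries came from 1 diet period, and the diets were not compared at other salt loads.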
